A study of Mus musculus with 4 samples.

Results

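Natural killer (NK) cells were examined in single-cell RNA libraries from the spleens of BALB/c mice that carried the syngeneic B cell lymphoma BCL1. A cell was taken as a member when its barcode had at least 300 detected genes, at least 2 UMIs (unique molecular identifiers, 1 per captured transcript) summed over 9 NK receptor genes, and 0 UMIs of the T cell receptor genes Cd3d, Cd3e and Cd3g. The 9 genes were Ncr1, Klrb1c, Klrb1a, Klre1, Klri2, Klra3, Klra7, Klra9 and Klra10. Members were therefore chosen by their measured counts of these 12 genes, which are given as a description only. The rule found 54 members among 1821 cells, or 2.97%.

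All mice had received 10000 BCL1 cells on day 0, and spleens were digested with Liberase on day 13. The 4 libraries came from mice given isotype control antibody, anti-CD20 antibody on day 4, anti-CD27 antibody on days 5 to 8, or the combination of both on those days. The labels do not give the number of mice behind a library, and the study's single-cell methods give earlier injection days than the labels do. Each treatment was 1 library, so no difference between treatments has a replicate check, and intervals on counts cover counting error only. Across libraries, 342 to 511 cells passed the gene filter, with medians of 1044 to 1518.5 UMIs per cell, and no barcode passed it in more than 1 library.

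NK cells are innate lymphocytes that kill without a rearranged antigen receptor. They read target cells through activating and inhibitory lectin-like receptors of the Klr families and through Ncr1 (NKp46), and kill by releasing perforin and granzymes. They also bind antibody-coated cells through the Fc receptor CD16, encoded by Fcgr3, and secrete chemokines and interferon gamma. CD27, a TNF receptor family member that binds CD70, marks the less mature NK cells of the mouse spleen, and CD11b (Itgam) marks the mature ones.

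The rule genes other than Ncr1 lie in the NK gene complex on chromosome 6. In GRCm38 (mm10), the build of the alignment, 24 Klr genes of GENCODE spanned chr6:128609227-131247362, and Ncr1 lies at chr7:4337724-4345164. Members had a median of 3 rule genes and 6 rule UMIs each, and 8 members sat exactly on the threshold of 2 UMIs. Just outside it, 29 cells had 1 rule UMI and no Cd3 UMI, and 12 cells met the UMI threshold but had a Cd3 UMI. Klra9 was seen in 14 members and Klra10 in 13, in every case beside Klra3. The last 300 bases of the annotated Klra3 and Klra9 transcripts were 98.7% identical at best, so reads from these copies may have been assigned to either gene. Klra3 and Klra10 were 48.7% identical there, and BALB/c mice can differ from the reference in this family.

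The NK label held for most members but not for all. Of the 54, 39 had 0 to 4 UMIs of Cd74, the invariant chain of MHC class II, and 15 had 19 or more. The 39 Cd74-low members carried 698 of the 700 UMIs of Gzma (granzyme A), and 32 of them had at least 1. Among the 15 Cd74-high members, 1 cell had a Gzma UMI. Ccl5 was found in 38 Cd74-low and 7 Cd74-high members, and Ncr1 in 33 and 3.

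The Cd74-high members were of more than 1 kind. In 6 of them Klri2 was the only rule gene, with 2 or 3 UMIs, beside 35 to 91 UMIs of Cd74 and none of Gzma, Gzmb, Prf1 or Nkg7. One of these held 16 UMIs of Xcr1, a marker of cross-presenting dendritic cells. Some others carried Klra or Ncr1 UMIs together with immunoglobulin transcripts, up to 393 of Ighm and 352 of Igkc in 1 anti-CD20 cell. The barcodes of 5 members, this cell among them, ended in N in place of a base, as did 289 of all 1821 cells. The 3 such members after anti-CD20 were all Cd74-high, and of the 2 after the combination 1 was. No doublet caller was run, and the part of doublets or of free RNA in these cells was not tested. By library, 4 of 10 isotype control members, 4 of 26 anti-CD20 members, the only anti-CD27 member and 6 of 17 combination members were Cd74-high. Results are therefore given for all members and, as an alternative chosen after seeing the data, for the 39 Cd74-low members.

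Markers of other lineages in the Cd74-low members differed by lineage. The 10 granulocyte genes gave 31 UMIs in 16 of 39 cells, which were 1 of 6 isotype control, 5 of 22 anti-CD20 and 10 of 11 combination cells, and the 9 B cell genes gave 45 UMIs in 21 cells. Their summed UMIs of 11 macrophage and monocyte genes ranged from 0 after anti-CD20 to 7 after the combination, and 9 of the 11 genes were at 0. The 7 dendritic and plasmacytoid genes gave 1 UMI in all. Trac, Cd8b1 and Bcl11b were at 0, while Trbc1 had 55 UMIs in 18 cells. Erythroid transcripts were unevenly spread, with 365 UMIs in 1 isotype control cell.

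**Figure D1:**
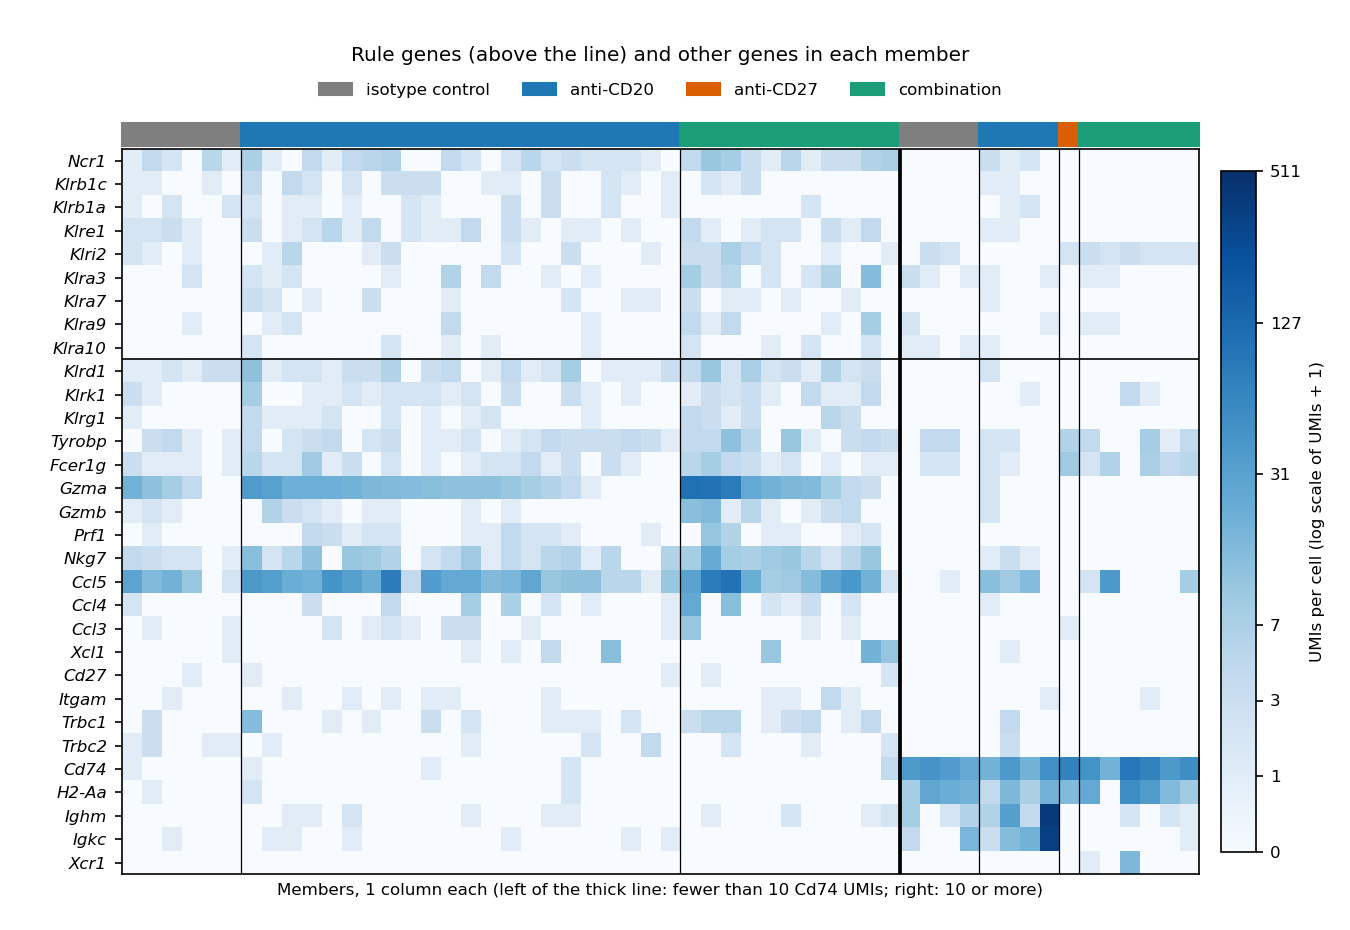
UMIs per cell (colour, log scale of UMIs + 1) of the 9 rule genes, above the line, and of other genes in each of the 54 members, 1 column per cell. The bar above gives the library, and the thick line divides the 39 members with fewer than 10 Cd74 UMIs from the 15 others, which lack Gzma in all but 1 cell.

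The share of NK cells in each spleen sample was compared first. Anti-CD20 gave 26 members of 506 cells, 5.14% (95% exact binomial interval 3.38 to 7.44), and the combination 17 of 462, 3.68% (2.16 to 5.83). The isotype control gave 10 of 342, 2.92% (1.41 to 5.31), and anti-CD27 alone 1 of 511, 0.196% (0.00495 to 1.09). The anti-CD27 library stood below the other 3, whose intervals overlapped one another.

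The difference between anti-CD27 and isotype control was -2.73 percentage points (Newcombe interval -5.11 to -1.12). Combination minus anti-CD20 was -1.46 points (-4.12 to 1.21), which spans 0, and anti-CD20 minus isotype control was 2.21 points (-0.65 to 4.86). With Cd74-low members alone, the shares were 1.75% in the isotype control, 4.35% after anti-CD20, 0% after anti-CD27 and 2.38% after the combination. The 0 of 511 cells after anti-CD27 allows a share of up to 0.587% by a floor of 3 counts and up to 0.719% by the exact interval. Anti-CD27 minus isotype control was then -1.75 points (-3.77 to -0.548), and anti-CD20 minus isotype control was 2.59 points (0.102 to 4.94).

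The base of these shares moved between libraries, because few B cells were left after the combination, where 460 of 462 cells had fewer than 2 B cell UMIs. Among cells with fewer than 2 UMIs of Cd79a, Cd79b and Ms4a1, a base chosen after seeing the data, members were 5.67% in the isotype control, 7.33% after anti-CD20, 0.306% after anti-CD27 and 3.70% after the combination. On this base the combination minus anti-CD20 was -3.63 points (-7.59 to -0.312), an interval that no longer reached 0. Depth also differed, with a median of 957 UMIs per isotype control member, 907 after anti-CD20 and 1997 after the combination. When every cell was reduced to 400 UMIs, the expected shares were 1.88% in the isotype control, 3.98% with anti-CD20, 0.159% with anti-CD27 and 2.04% with both. The share after anti-CD27 was the lowest on each of these bases, but it is the value of 1 library. It was 1.57% when 1 rule UMI was enough, against 4.09% to 6.92% in the other libraries. Among barcodes with fewer than 300 genes, which were not used, 5 of 288 anti-CD27 barcodes (1.74%) met the UMI part of the rule, and 0.592% to 1.36% of those in the others.

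**Figure D2:**
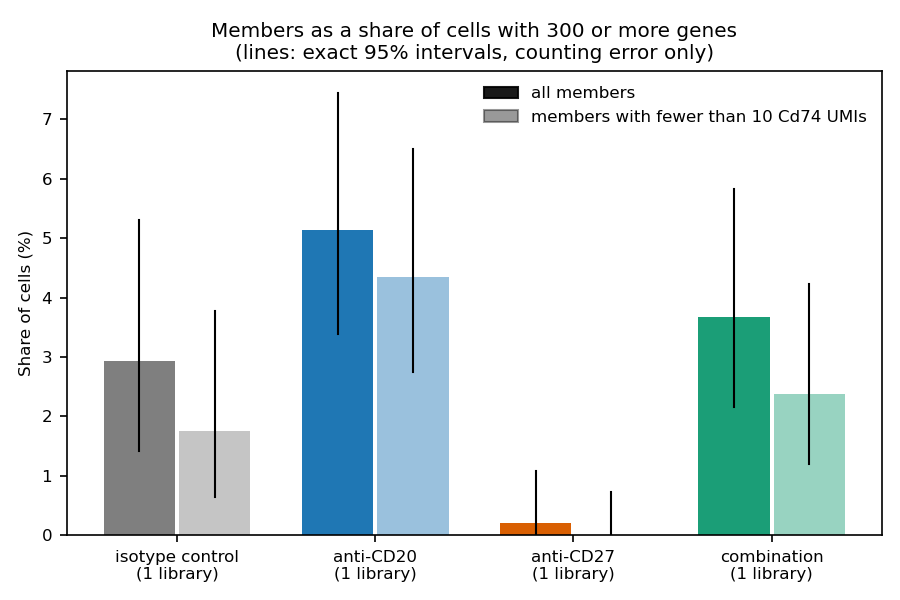
Members as a percentage of cells with 300 or more genes in each library (dark bars, all members; pale bars, members with fewer than 10 Cd74 UMIs), with exact 95% binomial intervals as lines. The anti-CD27 bar, 1 cell of 511, lies below the other 3 libraries.

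To see what set NK cells apart from T cells of the same spleens, UMIs were summed per library and class. T cells had at least 2 Cd3 UMIs and no rule-gene UMI, with no requirement for Cd8 or cytotoxic genes. The isotype control, anti-CD20 and combination libraries entered this comparison, with 10, 26 and 17 NK members against 40, 122 and 143 T cells. The anti-CD27 library, with 1 member, did not. Among the genes higher in NK members were 3 of 6 granule genes, 3 of 3 other NK receptor genes and 2 of 9 adaptor and signalling genes. Lat, Trac, Trbc2 and Cd27 were among the lower genes. By edgeR's quasi-likelihood test with library as a block and Benjamini-Hochberg adjustment, 29 of 819 genes were higher (3.54%) and 18 were lower (2.20%), the rule and Cd3 genes left out. Such p-values set the difference between the classes only against its spread over these 3 libraries. That spread is not the gene's own alone, since edgeR draws each gene's variance toward a trend over all genes tested. Each library had another treatment, so they are not replicates of 1 condition, and treatment and technical spread cannot be told apart.

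Gzma, a serine protease of cytotoxic granules, had the largest fold change of the higher genes. Levels are given as CPM, the UMIs of a gene per 1000000 UMIs of the class in a library. Gzma stood at 3922 CPM in NK members in the isotype control, 6988 after anti-CD20 and 9315 after the combination, against 56.0, 28.8 and 204 in T cells. The groups did not overlap, and the log2 fold change was 6.48 ± 0.51 (SE, n = 3 libraries, edgeR adjusted p = 6.5e-12). The NK sums mix both kinds of member, with Gzma at 13126 CPM in Cd74-low and 52.5 in Cd74-high members of these libraries together. In the isotype control, Cd74-high members held 6590 UMIs and Cd74-low members 4374. All 43 Gzma UMIs of the isotype control were in those 4374. Cd74-low members alone had 272 of 25033 UMIs after anti-CD20 (10866 CPM) and 383 of 23769 after the combination (16113 CPM). The steps between libraries thus depend in part on that mix. In Cd74-low members the isotype control and anti-CD20 levels lay closer together than in all members. Of 6 granule genes tested, 3 were higher and none lower, with a median log2 fold change of 1.15 against -0.0009 over all genes. Besides Gzma these were Gzmb (2.64 ± 0.56) and Nkg7 (1.53 ± 0.42), a granule membrane protein. Srgn, the proteoglycan core of the granule, gave 0.25 ± 0.37 (edgeR adjusted p = 0.844).

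Receptor genes outside the rule showed the same order. Klrd1 (CD94, the partner of the NKG2 chains) had 1003, 1556 and 973 CPM in NK members of the isotype control, anti-CD20 and combination libraries, and 112, 129 and 173 in T cells. Its log2 fold change was 3.12 ± 0.39 (edgeR adjusted p = 2.06e-07). Klrk1, which encodes the activating receptor NKG2D, gave 3.92 ± 0.52, and Cd7 gave 3.49 ± 0.46. All 3 of these receptor genes that could be tested were higher. Klrd1 and Klrk1 were also the only genes of the NK gene complex, apart from the rule genes, with enough counts for the test.

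NK receptors signal through small adaptors. Tyrobp (DAP12) had 1551, 1275 and 1532 CPM in NK members against 37.3, 38.4 and 162 in T cells, a log2 fold change of 4.24 ± 0.42 (edgeR adjusted p = 1.24e-09). Fcer1g, the FcR gamma chain on which CD16 and Ncr1 depend, gave 4.46 ± 0.55. Of 9 adaptor and signalling genes tested, these 2 were higher and Lat, the T cell receptor scaffold, was lower at -4.43 ± 0.74. Hcst (DAP10) gave 0.58 ± 0.40 and Lck -0.55 ± 0.40, neither past the threshold.

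Among 4 chemokine and cytokine genes tested, Ccl5 (3.84 ± 0.54) and Ccl4 (2.24 ± 0.59, edgeR adjusted p = 0.0102) were higher. Ccl5 summed to 6932, 13619 and 9899 CPM in NK members and to 56.0, 944 and 2838 in T cells, so the gap narrowed from the isotype control to the combination library. Ccl3 reached 1.15 ± 0.68 (edgeR adjusted p = 0.427), with 182, 357 and 292 against 0, 28.8 and 595. Its T cell value after the combination was thus above that of NK members. Transcription factors higher in NK members were Zeb2 (3.60 ± 0.93), Irf8 (3.36 ± 0.50) and Id2 (1.20 ± 0.37), the inhibitor of E proteins on which innate lymphocytes depend.

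Cd27, the target of the anti-CD27 antibody, was lower in NK members than in T cells. It had 91.2, 51.0 and 73.0 CPM in NK members, which rest on 1, 2 and 3 UMIs, and 597, 475 and 358 in T cells, with no overlap. The log2 fold change was -2.62 ± 0.57 (edgeR adjusted p = 1.46e-03). Of 15 genes of CD27 and its signalling partners, 2 had enough counts for the test. Other lower genes were Trbc2, Thy1 and Lef1, with log2 fold changes of -3.02, -2.17 and -2.29. Trac, Cd8b1, Dapl1 and Bcl11b had no UMI in NK members. Against a floor of 3 UMIs over the group, Trac was at least 32.0-fold lower, Cd8b1 15.2-fold, and Dapl1 and Bcl11b 9.62-fold each. These floors are a description, since the classes were divided by their Cd3 UMIs.

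Some of the 29 higher genes came from the Cd74-high members. Cd74, H2-Eb1, H2-Aa and H2-Ab1 gave log2 fold changes of 3.92 to 4.50, but Cd74 had 9 UMIs in Cd74-low and 588 in Cd74-high members of these libraries, and Cst3 had 14 and 287. Cd74 summed to 169 CPM in Cd74-low members and 424 in T cells. The neutrophil transcript S100a9 was lower in NK members at -4.57 ± 0.70. It ran at 101 CPM in T cells after anti-CD20 and at 15247 after the combination, and the part of granulocyte RNA in that result was not tested. Without the 15 Cd74-high members, 25 genes were higher and 20 lower, and Gzma, Tyrobp, Klrk1, Klrd1, Fcer1g, Irf8 and Ccl5 kept their calls. In members without any Trac, Trbc1 or Trbc2 UMI the calls fell to 2 higher and 1 lower, with Gzma at 5.19 and no longer past the threshold. Leaving out the isotype control library gave 56 higher and 31 lower genes, and leaving out the combination library 27 and 10.

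**Figure D3:**
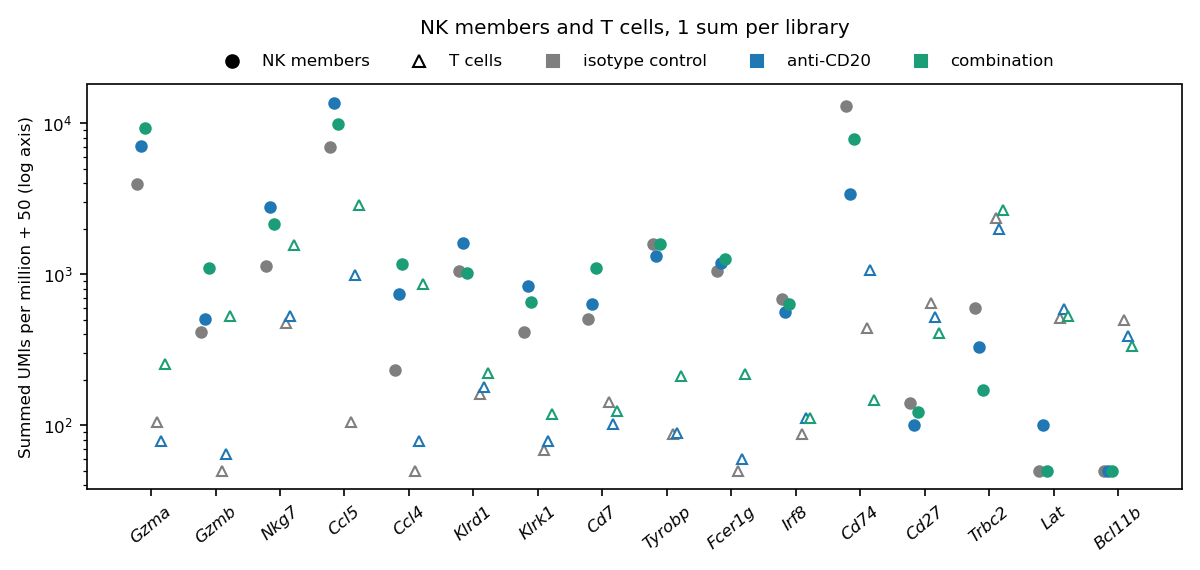
Summed CPM + 50 (log axis) in NK members (filled circles) and T cells (open triangles), 1 point per library, for genes named in the text. Gzma, Klrd1, Klrk1, Tyrobp, Fcer1g and Irf8 lie higher in NK members in all 3 libraries, and Cd27, Trbc2, Lat and Bcl11b lie lower.

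CD8 T cells share the killing machinery, so they were compared separately (at least 1 Cd3 and 1 Cd8a or Cd8b1 UMI, no Cd4 and no rule-gene UMI, with 13, 51 and 68 cells). By the same edgeR test 6 of 685 genes were higher in NK members (0.876%) and 6 were lower (0.876%). The 6 higher genes were Gzma (5.72 ± 0.54, edgeR adjusted p = 0.0106), Tyrobp (5.10 ± 0.72), Fcer1g (4.66 ± 0.59), Irf8 (3.52 ± 0.46), Klrk1 (2.88 ± 0.43) and Klrd1 (2.44 ± 0.40). Nkg7 and Ccl4, which passed against T cells as a whole, gave 0.52 ± 0.36 and 0.39 ± 0.48 here. Ccl5 gave 3.25 ± 0.65 (edgeR adjusted p = 0.0583).

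Cd27 was again among the lower genes, at -2.93 ± 0.50 (edgeR adjusted p = 0.0237), with 646, 667 and 396 CPM in CD8 T cells. The others were Cd8b1, Trac, Dapl1, Lat and Trbc2. Cd8b1 helped to define the CD8 T cells, so its place in this count was fixed by that choice and is no finding. Cd3 UMIs also divided the classes, so the lower Trac, Trbc2 and Lat are a description only. These calls were fragile, because leaving out any 1 of the 3 libraries left 0 or 1 higher gene and 0 lower genes by edgeR, with 67 to 107 genes at an unadjusted p under 0.05. The log2 fold change of Gzma then ran from 5.26 to 6.97 and that of Cd27 from -2.40 to -3.18. Members without T cell receptor constant-region UMIs gave 0 calls by edgeR, with 53 of 255 genes at an unadjusted p under 0.05. DESeq2 on all 3 libraries called 16 higher and 8 lower.

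The 6 genes that were higher against CD8 T cells were also higher against T cells, and the stretch before the start of 3 of them is shown to give the sequence context of the genes that marked these cells. Sequences are those of RefSeq on GRCm38.p6, on the gene's own strand (minus for each), 250 bases up to the start. Capitals mark AGGTGT or its reverse complement ACACCT, the core bound by T-box factors such as Eomes and T-bet, which was 1 of several motifs looked up.
Gzma, chr13:113100982-113101231: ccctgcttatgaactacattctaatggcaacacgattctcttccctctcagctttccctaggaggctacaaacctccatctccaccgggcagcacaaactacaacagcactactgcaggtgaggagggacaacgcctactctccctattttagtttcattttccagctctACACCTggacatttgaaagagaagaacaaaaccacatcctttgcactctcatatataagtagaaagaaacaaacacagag
Klrk1, chr6:129623865-129624114: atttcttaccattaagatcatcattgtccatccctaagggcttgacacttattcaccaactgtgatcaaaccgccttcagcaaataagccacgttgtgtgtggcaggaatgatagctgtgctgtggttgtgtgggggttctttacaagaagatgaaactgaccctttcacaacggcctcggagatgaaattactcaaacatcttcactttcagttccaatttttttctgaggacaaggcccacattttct
Fcer1g, chr1:171234350-171234599: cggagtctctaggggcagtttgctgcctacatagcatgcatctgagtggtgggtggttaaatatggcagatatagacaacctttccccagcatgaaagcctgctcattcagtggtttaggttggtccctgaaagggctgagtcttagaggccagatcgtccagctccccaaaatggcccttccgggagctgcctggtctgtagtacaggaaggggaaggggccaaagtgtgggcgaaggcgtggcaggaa
The motif was in the Gzma stretch and not in the other two, and 11.8% of all 32851 promoters of that length held it on either strand. Of the 6 genes, 4 had an entry and 1 of these held the motif. A match of letters is not a measured binding site.

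Adding anti-CD27 to anti-CD20 was then examined within NK members (17 cells against 26). With 1 library each there is no test, and a gene was counted when its summed level differed at least 2-fold among genes with 20 or more UMIs in both libraries together. Of 691 genes, 86 were higher after the combination (12.4%) and 82 were lower (11.9%). In the Cd74-low members (11 against 22 cells), 41 of 358 genes were higher and 27 lower. Of the lists, 5 of 8 interferon-stimulated genes and 3 of 9 granule genes were past 2-fold higher. Of 10 trafficking and adhesion genes 3 were past 2-fold lower and 1 higher.

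Gzmb (granzyme B) had 43 UMIs in 8 combination members and 18 in 9 anti-CD20 members, a log2 ratio of 1.19 (95% interval 0.36 to 2.07) and 1.50 (0.64 to 2.43) in the Cd74-low cells. Of the 43, 28 came from 2 cells. Without the deepest cell of each library the ratio was 0.57, under 2-fold. Gzma had 383 UMIs in 10 cells and 274 in 19, a log2 ratio of 0.41 (0.19 to 0.64). That sign did not hold under other settings. The ratio was -0.0386 without the deepest cell of each library, -0.18 as a mean over cells and -0.0119 without barcodes ending in N. Prf1 (perforin), Nkg7 and Klrg1 gave -0.19 (-1.10 to 0.70), -0.37 (-0.79 to 0.05) and 0.18 (-0.86 to 1.24), intervals that include 0. Of 9 granule genes measured 3 were past 2-fold higher and none lower, with a median of -0.14 against 0.04 over all genes. In Cd74-low cells 2 of 7 were past 2-fold higher and none lower, with a median of -0.01 against 0.14. Srgn was among those higher in all members, with 51 UMIs against 17, a ratio of 1.52 (0.70 to 2.40). In Cd74-low cells it had 19 against 9, and 1.15 (-0.06 to 2.48) includes 0.

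The chemokine genes did not move as a group, with 0 of 5 past 2-fold and a median of 0.00 in all members, and 1 of 5 past 2-fold and a median of 0.38 in Cd74-low cells. Ccl4 gave 46 UMIs against 27, which is 0.70 (-0.02 to 1.44) as a log2 ratio, and 25 of the 46 came from 1 cell. In Cd74-low cells it gave 0.90 (0.17 to 1.65). Ccl3 had 12 and 14, a ratio of -0.29 (-1.53 to 0.93). Ccl5 was lower at -0.46 (-0.65 to -0.27). Xcl1, a chemoattractant for cross-presenting dendritic cells, had 40 UMIs in 3 cells against 20 in 5, a ratio of 0.93 (0.12 to 1.78), and 1.15 (0.33 to 2.02) in Cd74-low cells. Ifng was seen as 3 UMIs in 3 combination members and as 0 in the other libraries, a count at the floor, so no ratio is given.

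Interferon-stimulated genes were higher in 5 of 8 cases and lower in none, with a median log2 ratio of 1.16. The guanylate-binding protein gene Gbp4 had 29 UMIs in 9 cells against 4 in 4, a ratio of 2.79 (1.28 to 4.76). Psmb9, a subunit of the immunoproteasome, had 34 UMIs in 11 cells against 15 in 9, a ratio of 1.11 (0.20 to 2.09). In Cd74-low cells only 2 genes of the list had 20 or more UMIs and 1 of them was past 2-fold higher, and Gbp4, with 12 UMIs against 3, gave 2.07 (0.19 to 4.54). Summed over the 31 genes of the list, the Cd74-low cells of the isotype control had 3201 CPM, those given anti-CD20 had 2836 and those given both antibodies 5848. The cells that were not members moved the same way, with sums of 5027, 4735 and 12779, and the part of RNA from those cells in the members' values was not tested. B2m, the light chain of MHC class I, was higher at 0.76 (0.52 to 1.01), while the class I heavy chain gene H2-D1 was level at -0.02 (-0.25 to 0.21). The heavy chain genes H2-K1 and H2-T23 gave 0.32 (0.04 to 0.61) and 0.93 (-0.04 to 1.97), and H2-Q7 -0.07 (-1.04 to 0.90). Of 6 MHC class I genes 1 was past 2-fold higher, with a median of 0.54. In Cd74-low cells 0 of 5 were, with a median of 0.19.

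On the lower side were Klf2, which drives exit from lymphoid tissue, at -2.24 (-3.80 to -0.93) with 6 UMIs in 3 cells against 27 in 14, and the sialomucin gene Spn at -1.90 (-3.36 to -0.66). Itga4, the alpha-4 integrin chain, gave -0.81 (-1.60 to -0.04), and -1.80 (-3.05 to -0.70) in Cd74-low cells. Itgb1, the beta-1 integrin chain, went the other way with 33 UMIs against 15, a ratio of 1.07 (0.15 to 2.06). In Cd74-low cells it had 14 against 7, and the interval of -0.33 to 2.62 includes 0. In the rule-based list of genes that differed most, the higher side of all members was led by Dnase1l3, Ly6a, Rgs2 and Cst3 and the lower side by Igj and Ms4a1. Dnase1l3 had 30 UMIs against 0 and Igj 0 against 48, of which 39 were in 1 cell. None of these 6 genes was named in the Cd74-low cells, where Cox7b (2.56, 1.17 to 4.29) and Gzmb led the higher side and Klf2 and Itga4 the lower. B cell genes had a median of -3.93 in all members, with 5 of 7 past 2-fold lower and 2 higher, Cd74 at 1.23 and H2-Aa at 1.41. Of the 443 Ighm and 394 Igkc UMIs after anti-CD20, 393 and 352 were in 1 Cd74-high cell. All members include 4 of 26 anti-CD20 and 6 of 17 combination cells that were Cd74-high.

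**Figure D4:**
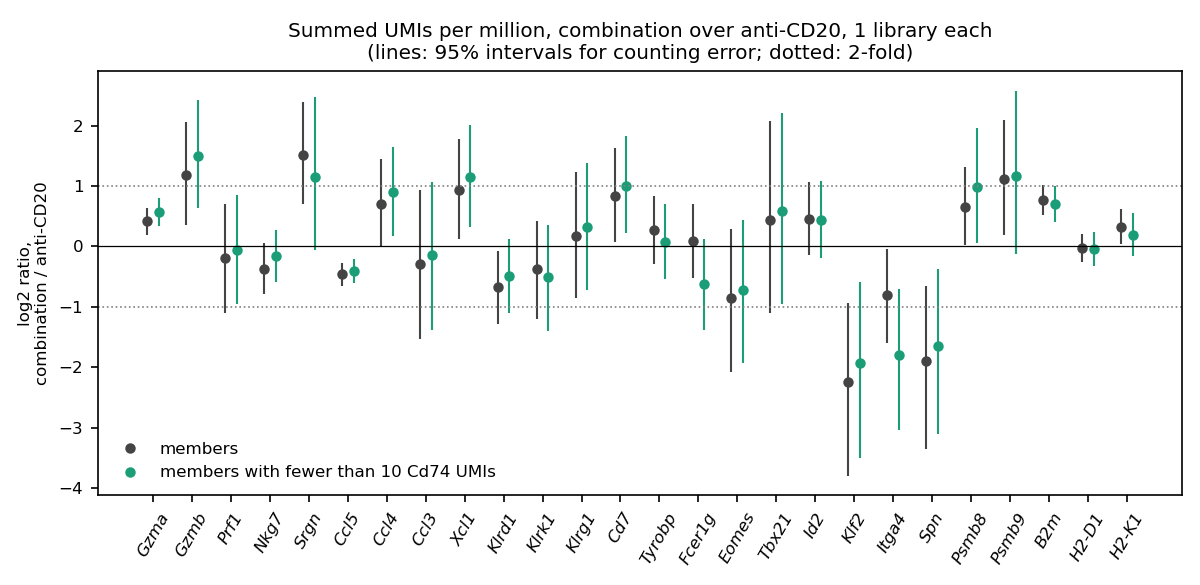
Log2 ratio of summed CPM, combination over anti-CD20, for genes of the fixed lists, in all members (grey) and in members with fewer than 10 Cd74 UMIs (green), 1 library each. Lines are 95% intervals for counting error and dotted lines mark a 2-fold ratio. Gzmb lies above 0 in both sets, and Klf2, Itga4 and Spn lie below 0.

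Anti-CD20 alone was compared with isotype control in all members (26 against 10 cells), since only 6 Cd74-low isotype control cells remained. Of 374 genes, 79 were higher (21.1%) and 45 lower, which is 33.2% past 2-fold in either direction. With TMM factors the balance moved to 41.4% higher and 4.55% lower. Proliferation genes were higher in 5 of 6 cases, with Top2a at 30 UMIs against 2, a log2 ratio of 2.07 (0.09 to 5.18). This rested on 2 anti-CD20 cells, 1 of them Cd74-high, which held 217 of the 284 UMIs of the proliferation list. Without them the list summed to 2141 CPM against 2463 in the isotype control, Top2a had 5 UMIs, and 1 of the 6 genes was past 2-fold higher and 2 lower. Cd74 and H2-Aa were lower at -1.96 (-2.32 to -1.61) and -2.46 (-3.00 to -1.93). They move with the share of Cd74-high members, 4 of 10 against 4 of 26, and the sums of the isotype control were 6590 UMIs from Cd74-high and 4374 from Cd74-low cells. Anti-CD27 could not be compared with isotype control, because its only member, of 3716 UMIs, had 69 of Cd74, 2 of Klri2 and none of Gzma, Ccl5 or Cd27.

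NK members also varied among themselves. In Cd74-low cells Gzma ran from 0 to 19 UMIs in the isotype control (median 6), from 0 to 36 after anti-CD20 (median 12) and from 0 to 109 after the combination (median 16). The ranges overlapped, and median depths were 674.5, 855.5 and 1256 UMIs in the same order. Gzma was found in 33 members, of which all 33 had Ccl5, 20 had Gzmb and 18 had Prf1. Klrg1, a receptor of mature NK cells, was in 17 members and all of them had Gzma.

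The 2 markers of NK maturation were not seen in the same cell. Cd27 was detected in 5 members and Itgam in 13, with none in common. Of those with Itgam, 11 were Cd74-low. Cd27 had 0 to 2 UMIs per cell, so a cell without a UMI cannot be called negative. With so few cells detected, the lack of overlap cannot show that the markers exclude each other. Eomes was in 15 members and Tbx21, which encodes T-bet, in 14, and 6 had both. The Fc receptor genes were hardly captured, with 4 UMIs of Fcgr3 and 3 of Fcgr4 in all members, and Fcgr4 was at 0 in Cd74-low cells. Fcgr3 summed to 42.1 CPM in members and 90.9 CPM in the cells that were not members.

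Cell cycle genes were concentrated in few cells. At least 20 UMIs of the 31 proliferation genes were found in 5 members, 2 after anti-CD20 and 3 after the combination, of which 1 and 2 were Cd74-low. The highest had 126, in an anti-CD20 cell with 36 UMIs of Gzma, 1 of Cd27 and 14 of the T cell receptor gene Trbc1.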

How the data were processed

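Spleen cells were captured by Drop-seq, and 4 libraries were analysed. Per the labels and the study's methods, the authors aligned reads with STAR 2.5.0a to mm10 and deposited tables of raw UMI counts per gene and barcode, which are counts with no normalization. All 3198 barcodes and 17252 genes were read, and 0 columns were left unused. Barcodes with 300 or more genes were kept. No doublet caller was run. Treatments were taken from the labels. The count columns headed PBS were matched to the isotype control sample, as the only control library. Columns of the single antibodies were matched by the clone names in the study, and those of the combination by its short form. Members and gene lists were chosen with earlier results of these data known.

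UMIs were summed per library and class. NK members were tested against T cells and CD8 T cells with edgeR 4.0.16 (quasi-likelihood, TMM, filterByExpr, library as a block because both sums come from 1 library, Benjamini-Hochberg threshold 0.05) in R 4.3.3, after a test on simulated data. DESeq2 1.42.0 was an alternative. Between treatments, log2 ratios of summed CPM carry exact 95% intervals for counting error, with no test. Shares carry Clopper-Pearson and differences Newcombe intervals (scipy 1.17.1, numpy 2.4.6, pandas 2.3.3, Python 3.11.15).

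Genes were named by rule. From each list, these were up to 6 genes with the most UMIs and a few NK genes always. Per test, they were the 15 highest and 6 lowest called fold changes, and per pair of libraries the 10 largest and 10 smallest ratios with 30 or more UMIs, UMIs in 3 or more cells and an interval without 1. Immunoglobulin, haemoglobin, ribosomal and mitochondrial genes were left out of the last 2 parts. Genes named outside the rule, such as Xcr1, were chosen after their values were seen. Some items are not reported here and were left out of the gene lists, and the planned base and the planned B cell and myeloid gene set were replaced by sets without them. Alternatives changed the limits on genes and rule UMIs, depth, base, tool, normalization, filter, block, pseudocount and library set.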

Additional observations from a re-analysis of the deposited data

How the results depend on the processing

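The NK share moved with its definition. In the isotype control it was 5.67% with cells other than B cells as the base, and the difference of anti-CD27 minus isotype control was then -5.37 points. Without members holding Trac, Trbc1 or Trbc2 UMIs it was 2.77% after anti-CD20 and 1.73% after the combination. The anti-CD27 share was 0% with at least 3 rule UMIs, with fewer than 3 B cell and myeloid UMIs or with fewer than 10 Cd74 UMIs, and 1.57% with 1 rule UMI. The combination share was 1.95% with fewer than 3 B cell and myeloid UMIs and 2.04% expected at 400 UMIs. The settings on Cd74, on the base, on B cell and myeloid UMIs and on barcodes ending in N were chosen after seeing the data.

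Against T cells, 52 genes were higher and 67 lower with no filter, 2 and 1 without T cell receptor UMIs, and 10 were lower with DESeq2. Leaving out 1 library gave 27 to 56 higher and 10 to 31 lower. Against CD8 T cells, the counts were 10 and 17 with at least 3 rule UMIs, 22 and 24 with fewer than 10 Cd74 UMIs, 18 and 13 with fewer than 3 B cell and myeloid UMIs, 37 and 48 with no filter, and 0 and 0 without T cell receptor UMIs. DESeq2 gave 16 higher, and leaving out 1 library gave 0 to 1 higher and 0 to 0 lower. Without the library as a block, 17 genes were higher and 10 lower against T cells, and 10 were higher and 9 lower against CD8 T cells. The cause of these shifts was not tested, though sets without a library or without T cell receptor UMIs hold fewer samples or cells.

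For the combination against anti-CD20, 7.54% of genes were lower in Cd74-low members, and the log2 ratio of Gzma reversed to -0.18 as a mean over cells, -0.0386 without the deepest cells and -0.0119 without barcodes ending in N. For anti-CD20 against isotype control, TMM factors gave 41.4% higher and 4.55% lower, and without barcodes ending in N Igkc reversed to -1.14 and Ighm to -1.86. Of the values for single genes and lists, 662 were counted as kept, which for tested genes means direction and call. Another 61 lost the call, 52 moved and 5 reversed. Some of the 662 could not change. In the ratios, the limit of 3000 genes removed no member. A single gene's ratio also used neither the pseudocount nor the limit of 40 UMIs. The ratios carry no call. That of Gzmb counted as kept though it fell from 1.19 to 0.57, under 2-fold, without the deepest cells. Not run, with fewer than 10 cells in a library, were the sets without T cell receptor UMIs and with fewer than 3 B cell and myeloid UMIs in both ratios, and in anti-CD20 against isotype control also the sets without the deepest cells, with at least 3 rule UMIs and with fewer than 10 Cd74 UMIs. No ratio of anti-CD27 to isotype control was run, with 1 cell. Depth limits genes such as Cd27, Fcgr3 and Ifng, with 6, 4 and 3 UMIs in all members.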

Other observations

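Barcodes with fewer than 300 genes, which no comparison used, held 15 that met the UMI part of the NK rule. These were 4 of 457 in the isotype control, 4 of 294 after anti-CD20, 5 of 288 after anti-CD27 and 2 of 338 after the combination.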
